A study of Homo sapiens with 16 samples.

Results

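OCI-AML3, an established human acute myeloid leukemia (AML) cell line, was compared by RNA-seq between cells given Am80 together with GSK-LSD1 and MB3 (3 libraries) and cells labelled untreated (4 libraries). These 7 libraries of the 16 in the series were taken by their labels, and the comparison covered the 14602 genes, of 62700 in the deposited table, whose normalized counts averaged 10 or more across these libraries. Am80 (tamibarotene) is a synthetic retinoid that prefers the retinoic acid receptor RARA, GSK-LSD1 inhibits the histone demethylase LSD1, and MB3 inhibits the histone acetyltransferase GCN5. The study asked whether Am80 and ATRA (all-trans retinoic acid) act alike in AML, alone and with both inhibitors. RNA was taken 3 h after treatment, and the study's methods give for its cell lines 100 µM for MB3 and 0.1 µM for each of the other compounds, GSK-LSD1, Am80 and ATRA. The other groups were Am80 alone, ATRA alone, and ATRA with both inhibitors, each with 3 libraries. No group received the inhibitors without a retinoid, so each difference below is the net change of the triple treatment, called the Am80 combination. Whether the untreated cells received the solvent is not given in the sources used here. All libraries came from 1 cell line, and nothing in the labels says that the repeats were separate cultures, so the p-values measure only the spread between these libraries, which may be technical.

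Retinoic acid receptors sit on DNA as partners of the retinoid X receptors. A bound retinoid releases corepressors and recruits coactivators, so that target genes are transcribed. Among the best known targets are the genes of the CYP26 enzymes, which break retinoic acid down, and of RARB, a receptor of the same family. LSD1 removes methyl groups from histone H3 in a complex with CoREST proteins and is held at its genes in blood cells by the repressors GFI1 and GFI1B. GCN5, encoded by KAT2A, acetylates histones as part of large coactivator complexes.

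The 7 libraries held between 11963898 and 17929315 counted reads. Reads of the mitochondrial genome made up 6.21 to 6.95% of the untreated libraries and 7.07 to 7.88% of the Am80 combination libraries, so this share was higher in every treated library, and its part in the results was not tested. Untreated replicate 4 stood apart from the other untreated libraries. The chi-square per degree of freedom between pairs of replicates was 16.1 to 23.8 for the pairs with it and 2.77 to 5.48 for all other pairs, where 1 would be counting noise alone. Results that depend on it are therefore also given without it. The myeloid label held: all 10 myeloid blast markers passed the filter, with summed levels of 69770 to 96640 normalized counts in untreated cells and 66610 to 73780 in the Am80 combination. T cell markers were at or near 0, with at most 5 reads of each of the 7 genes in every library. For extraction of RNA and preparation of libraries, the labels give other kits (NucleoSpin RNA, NEBNext Ultra II DNA) than the paper's methods do (ZR RNA MiniPrep, TruSeq Stranded mRNA). Genome build and whether reads were counted by strand are not given in the sources used here, so reads from a gene and from a gene on the other strand could not be told apart. Among the genes named below, RARA, ICAM1, NQO1, SQSTM1, IER3, IRF1, LYZ, CEBPA, NGFR, HOXA10, PAQR7 and DDN have between 15.4 and 43.4% of their exonic bases covered by such a gene.

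The values are normalized counts as deposited, that is, read counts after division by 1 size factor per library, which the authors took from DESeq2. Genes were called where limma gave an adjusted p-value under 0.05 and a fold change above 2, on the scale of log2(normalized count + 1). In the Am80 combination 1534 of 14602 genes were called (10.5%), 787 of them higher (5.39%) and 747 lower (5.12%) than in untreated cells. Without untreated replicate 4 the counts were 738 higher and 760 lower, of which 707 and 687 were also called with it. The gene lists described below were counted again without it, other than that of long noncoding RNA genes. The counts of called members were the same except for heat shock genes (13 rises in place of 10), NRF2 targets (13 in place of 14), p53 targets (4 in place of 5), the MYC network (3 falls in place of 2), zinc finger genes, histone genes and genes of the mitochondrial genome. Rises reached much further than falls. A fall is bounded by the starting level, and the called lower genes had a median of 56.3 normalized counts, against 373 for all genes tested. The part of this bound in the difference was not tested. A change above 4-fold was called for 204 genes that rose and 82 that fell, above 8-fold for 72 and 2, and above 16-fold for 32 and 0. At any fold change, 7980 genes (54.7%) had an adjusted p-value under 0.05, so most of the differences were smaller than 2-fold. The libraries of the 2 groups did not overlap for 7875 genes (53.9%), and 1475 of the called genes (10.1% of those tested) were among them.

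The balance of rises and falls depended on the scaling. After the authors' size factors, the libraries summed to between 18934111 and 19405115 normalized counts in the Am80 combination and between 16559452 and 17522313 in untreated cells. When the libraries were scaled to their total reads instead, the median of all genes moved to a log2 fold change of -0.191, and 577 genes were called higher and 1176 lower (32.9% of called genes higher, against 51.3% with the authors' scaling). All of these 577 genes were also called higher with the authors' scaling, and the 1176 include all of the 747 called lower with it. In such bulk RNA, fewer cells expressing a gene and less of its RNA per cell cannot be told apart. The filter itself was narrow at its edge: TFAP2A entered with a mean of 10.001 normalized counts and ANKDD1B stayed out with 9.996.

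**Figure D1:**
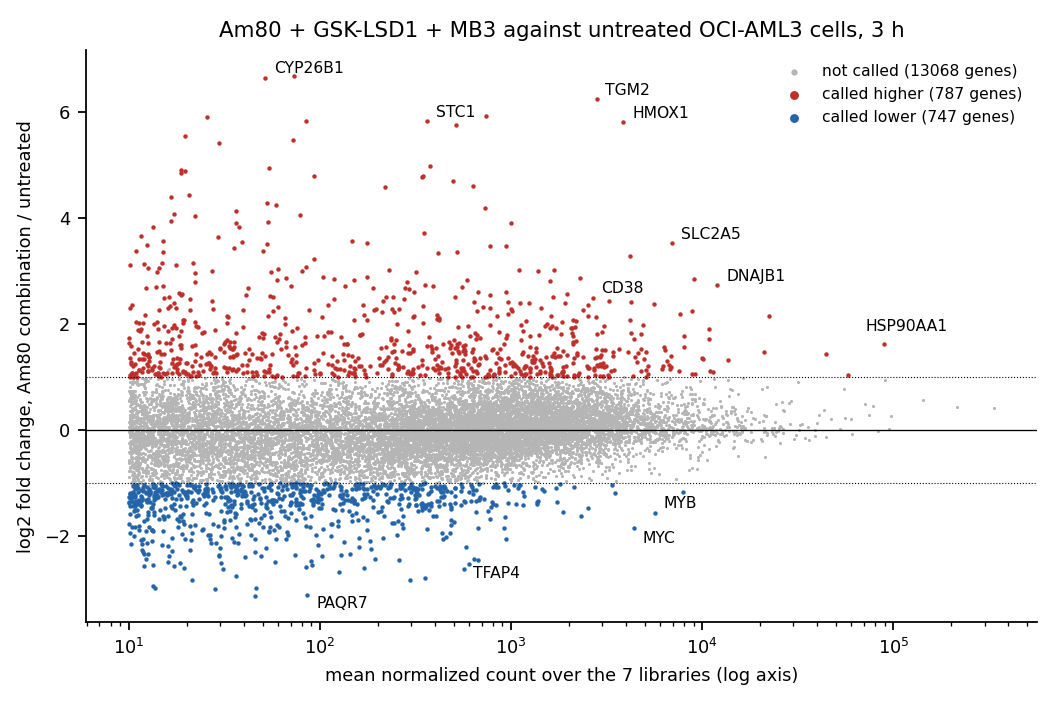
Log2 fold change of the Am80 combination against untreated cells (y axis) for the 14602 genes tested, by mean normalized count over the 7 libraries (x axis, log scale). Red points are the 787 genes called higher, blue points the 747 called lower and grey points the rest, and dotted lines mark 2-fold; rises run to a log2 fold change of 6.68 (PTGES) while the largest fall shown is -3.13 (INKA1).

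The 5 largest rises among named genes were those of PTGES, CYP26B1, TGM2, DHRS3 and CYP26A1, all of them on the list of retinoid response genes used here. This list was chosen with earlier results of these data known. Of 28 listed retinoid response genes, 21 passed the filter, 12 rose, none fell and 9 were not called. Among all genes tested, 5.39% were called higher and 5.12% lower. The median log2 fold change of the list was 1.54, against -0.0080 for all genes tested. Several members of this list, of the myeloid list and of the stem and progenitor list below were picked out by the study from these libraries, so their direction is not independent evidence.

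CYP26A1 and CYP26B1 encode the enzymes that hydroxylate retinoic acid for removal. CYP26A1 (ENSG00000095596.12) had 0, 0, 0 and 0 normalized counts in the 4 untreated libraries and 57.0, 50.9 and 70.8 in the 3 Am80 combination libraries. Against a floor of 3 reads per library, this is at least 17-fold higher. CYP26B1 (ENSG00000003137.9) had 0, 0, 0 and 1.11 normalized counts in untreated cells and 109.6, 126 and 124 in the Am80 combination. Only 1 read was seen in all untreated libraries together, and the ratio was 418 with a 95% counting interval (exact) of 74.4 to 16560. All treated libraries lay far above all untreated libraries for both genes, while the number of reads leaves the size of the CYP26B1 rise open over a wide range.

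DHRS3, a retinaldehyde reductase that turns retinal back into retinol, rose from 25.1, 18.5, 32.4 and 33.2 to 1641, 1726 and 1662 normalized counts (ENSG00000162496.9). The groups were well apart and the change was 60.7-fold, a log2 fold change of 5.92 ± 0.14 (SE, limma, adjusted p = 3.14e-18). TGM2, a transglutaminase that crosslinks proteins, went from 87.9, 94.2, 73.5 and 80.9 to 6489.7, 6417 and 6335 normalized counts (ENSG00000198959.12). This was a 75.7-fold rise (log2 6.24 ± 0.083, limma, adjusted p = 5.42e-22). HIC1, a zinc finger repressor, rose from 25.1, 15.7, 17.4 and 26.6 to 1198, 1181 and 1133 normalized counts, or 54.0-fold. Of its exonic bases, 29.8% are covered by a gene on the other strand, so its reads are less certain.

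PTGES, the synthase of prostaglandin E2, had 1.39, 0, 0 and 2.22 normalized counts in untreated cells and 175, 181 and 153 in the Am80 combination. It rested on 3 reads in all untreated libraries, and the ratio was 199 with a 95% counting interval (exact) of 67.5 to 968. CXCR5, a chemokine receptor best known from B cells, also came from 3 untreated reads (ratio 79.3, interval 26.7 to 389). A gene on the other strand covers 88.6% of the exonic bases of CXCR5, so these reads are uncertain. Intervals and floors cover counting error only.

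Among the receptors, RARA (ENSG00000131759.18), the preferred target of Am80, rose from 1014, 961, 1045 and 819 to 2767, 2826 and 2762 normalized counts. No treated library overlapped an untreated library, and the change was 2.91-fold (log2 1.54 ± 0.093, limma, adjusted p = 1.76e-11). RARB (ENSG00000077092.20) rose from 5.58, 3.69, 3.74 and 7.76 to 93.2, 125 and 131 normalized counts, or 19.4-fold (log2 4.28 ± 0.19, limma, adjusted p = 1.62e-13). RARG had 103, 104, 129.5 and 129.6 normalized counts in untreated cells and 114, 113 and 115 in the Am80 combination. These ranges overlapped, the log2 fold change of -0.027 ± 0.10 was not called (limma, adjusted p = 0.843), and its sign changed with the scaling and with the untreated libraries used. Of the partner receptors, RXRA was lower by less than 2-fold (log2 -0.29 ± 0.071, limma, adjusted p = 0.002) and RXRB had a log2 fold change of 0.0047 ± 0.10 (limma, adjusted p = 0.974).

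The promoter of RARB is shown because it is the classic site of retinoid action and because it holds a match to the retinoic acid response element made of a direct repeat spaced by 5 bases, searched on both strands as GNTCA and GNTCA with 6 bases of any kind between. RefSeq (GRCh38.p14) gives the 250 bases before the gene start at chr3:25428013-25428262 on the plus strand, and the match, in capitals, begins 52 bases before the start. The same letters occurred in 206 of 27305 RefSeq promoters (0.754%), counted over 250 bases before to 50 bases after each start, and in 2 of the 16 retinoid response genes tested that had a promoter in the table. The match is a description of the sequence, and binding was not measured.
RARB: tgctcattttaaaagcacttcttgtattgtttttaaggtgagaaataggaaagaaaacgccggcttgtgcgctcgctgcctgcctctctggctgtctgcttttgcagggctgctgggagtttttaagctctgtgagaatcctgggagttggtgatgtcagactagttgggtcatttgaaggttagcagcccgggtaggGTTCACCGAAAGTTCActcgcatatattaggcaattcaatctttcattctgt

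Other retinoid response genes rose with larger counts behind them. CD38, an ectoenzyme of the cell surface that consumes NAD, went from 841, 975, 917 and 833 to 4829, 5028 and 5266 normalized counts, a 5.66-fold rise (log2 2.50 ± 0.066, limma, adjusted p = 2.81e-17). ICAM1, an adhesion molecule, rose from 58.6, 52.6, 54.8 and 59.8 to 384, 371 and 348, or 6.42-fold, and PRAM1, an adaptor of myeloid cells, 2.12-fold, a call lost with libraries scaled to total reads (log2 0.90). For each of these genes the 3 treated libraries lay above the 4 untreated ones. NRIP1, a corepressor that binds retinoid receptors, came close to the limit at 1.94-fold and was not called.

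**Figure D2:**
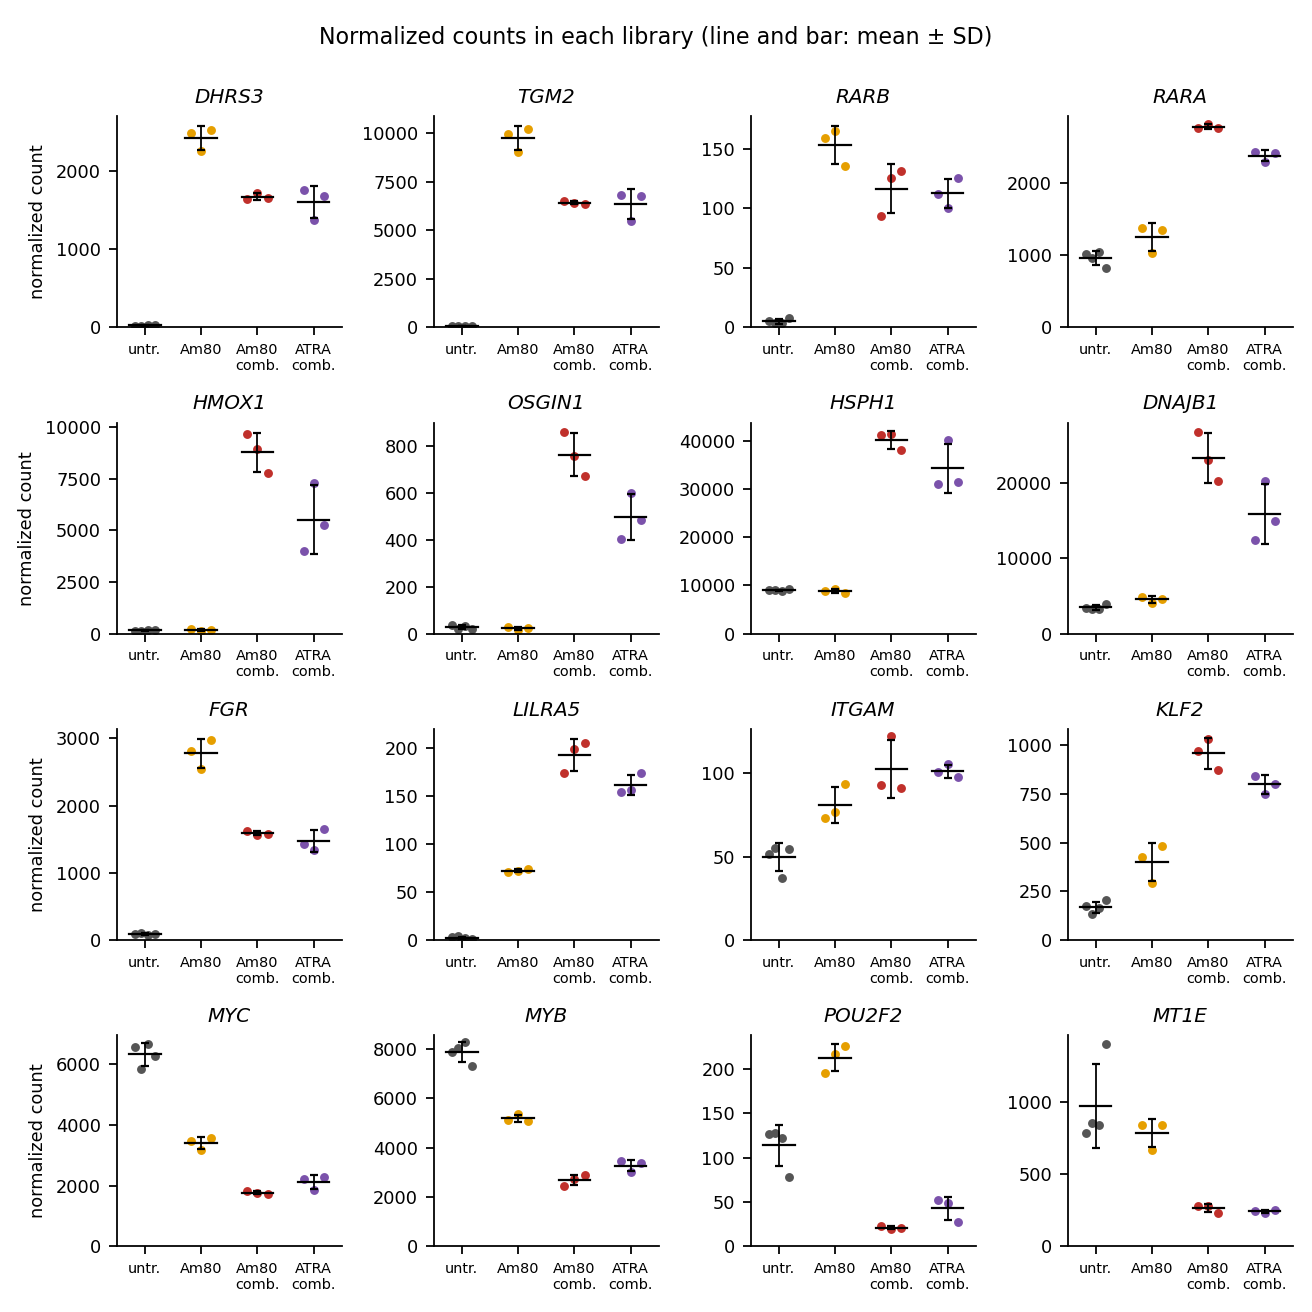
Normalized counts of 16 genes (y axis, from 0) in each library of untreated cells (untr., n = 4), Am80 alone, the Am80 combination and the ATRA combination (comb., n = 3 each), where points are libraries, lines are means and bars are SD. Retinoid genes such as DHRS3 and TGM2 were already high with Am80 alone, whereas HMOX1, OSGIN1, HSPH1 and DNAJB1 were high in the combinations, and MYC and MYB were lowest there.

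A second large group was that of the antioxidant genes controlled by NRF2, a transcription factor that is released when its sensor KEAP1 is modified by electrophiles or oxidants. Of 31 listed NRF2 target genes, 30 passed the filter, 14 rose and none fell, against 5.39% higher and 5.12% lower among all genes, with a median log2 fold change of 0.80. Scaling to total reads gave 12 rises and 1 fall. HMOX1 (ENSG00000100292.18), which breaks heme down to iron, carbon monoxide and biliverdin, had 131, 140.4, 162 and 195 normalized counts in untreated cells and 9662, 8919 and 7763 in the Am80 combination. The treated libraries stood 56.0-fold higher (log2 5.81 ± 0.16, limma, adjusted p = 9.21e-17). OSGIN1, an oxidative stress induced growth inhibitor, rose from 39.0, 19.4, 31.1 and 22.2 to 858, 760.1 and 673 normalized counts, or 27.3-fold. NQO1, a quinone reductase, rose from 367, 425, 384 and 476 to 3625, 3443 and 2959, or 8.09-fold. The 2 groups of libraries did not overlap for any of the 3 genes.

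Glutathione, thioredoxin and iron storage genes were among the 14. GCLM, the regulatory subunit of the enzyme that starts glutathione synthesis, rose from 999.9, 1033, 1075 and 977 to 4557, 4573 and 4527 normalized counts, or 4.46-fold. SLC7A11, the cystine importer that feeds this pathway, rose 3.03-fold, and TXNRD1, the cytosolic thioredoxin reductase, rose from 3960.5, 4104, 3608 and 4004 to 14070.2, 13313 and 13000.5 normalized counts, or 3.44-fold. The aldo-keto reductase AKR1C1 rose 7.41-fold, with close paralogs that could share its reads. FTL, the ferritin light chain, was among the most abundant transcripts that rose, from 23457, 23999, 24041 and 32572 to 71238, 74554 and 62928 normalized counts. Untreated replicate 4 was the highest of the untreated libraries for FTL and still lay far below all treated libraries. FTH1, the heavy chain, rose 2.31-fold, but 62.4% of its exonic bases are covered by a gene on the other strand. The autophagy receptor SQSTM1 (2.33-fold), the NADPH source PGD and the small MAF gene MAFG also rose. ME1 and PIR were just past the limit, ME1 at 2.01-fold, and both calls were lost with libraries scaled to total reads (log2 0.82 for each). The call of ME1 was also lost without Am80 combination replicate 2, untreated replicate 1 or untreated replicate 4 (0.96 to 0.98), and that of PIR without Am80 combination replicate 1, untreated replicate 2 or untreated replicate 3 (0.92 to 0.98).

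Promoters of 3 of these genes are shown for the core of the antioxidant response element, searched as TGACNNNGC on both strands. It occurred in 6 of the 23 NRF2 target genes tested that had a RefSeq promoter, and in 3702 of all 27305 promoters (13.6%), so a match is common by itself. The sequences are the 250 bases before the gene start (RefSeq, GRCh38.p14), and capitals mark the match. TXNRD1 lies at chr12:104215529-104215778 on the plus strand with a match 99 bases before the start. GCLM lies at chr1:93909431-93909680 on the minus strand with a match 34 bases before the start, and ME1 at chr6:83431052-83431301 on the minus strand with a match 137 bases before it. In ME1 the capitals overlap a match to the AP-1 site TGANTCA.
TXNRD1: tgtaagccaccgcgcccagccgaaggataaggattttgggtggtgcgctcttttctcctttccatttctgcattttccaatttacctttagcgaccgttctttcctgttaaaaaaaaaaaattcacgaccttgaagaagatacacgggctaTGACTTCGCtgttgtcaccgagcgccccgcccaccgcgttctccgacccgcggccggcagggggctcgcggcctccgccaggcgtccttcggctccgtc
GCLM: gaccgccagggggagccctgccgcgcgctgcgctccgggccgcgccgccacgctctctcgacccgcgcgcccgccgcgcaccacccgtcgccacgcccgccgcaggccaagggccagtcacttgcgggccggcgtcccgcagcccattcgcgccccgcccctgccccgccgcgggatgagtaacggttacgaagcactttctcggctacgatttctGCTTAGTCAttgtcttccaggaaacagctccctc
ME1: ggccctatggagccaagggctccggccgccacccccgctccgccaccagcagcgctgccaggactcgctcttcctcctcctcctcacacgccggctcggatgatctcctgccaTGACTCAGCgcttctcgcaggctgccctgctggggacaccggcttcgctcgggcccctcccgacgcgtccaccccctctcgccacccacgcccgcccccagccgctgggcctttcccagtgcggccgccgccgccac

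Most chaperone genes of the cytosol were higher. Of 30 listed heat shock genes, 26 passed the filter, 10 rose and none fell (5.39% and 5.12% of all genes), with a median log2 fold change of 0.96. At any fold change, 24 of the 26 were higher and 1 lower with an adjusted p-value under 0.05 (limma), against 27.8% and 26.9% of all genes. DNAJB1 (ENSG00000132002.9), a co-chaperone of the HSP70 proteins, rose from 3438, 3336, 3252 and 3956 to 26831, 23057 and 20202 normalized counts, or 6.66-fold (log2 2.73 ± 0.12, limma, adjusted p = 1.03e-13). BAG3, which links HSP70 to small heat shock proteins, rose from 508, 556, 583 and 549.5 to 3270.1, 3238 and 2869.7, or 5.68-fold. HSPH1, an exchange factor for HSP70, rose from 8989, 8953, 8857 and 9190.2 to 41217, 41272 and 37999.8 normalized counts, or 4.46-fold. The libraries of the 2 groups were clearly separate for all 3 genes.

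HSP90AA1, the stress-inducible HSP90, was the most abundant gene that rose, from 46630.2, 47831, 44167 and 49486 to 148956, 156748 and 128886 normalized counts (3.07-fold). The HSP40 genes DNAJA4 (5.39-fold) and DNAJA1 (2.52-fold), the small heat shock protein gene HSPB1 (2.50-fold) and the HSP90 co-chaperone CHORDC1 (2.87-fold) rose as well. HSPA8, the constitutive HSP70, was just under the limit at 1.93-fold. HSPA6, an HSP70 that human cells make under stress and which was not on the list, rose from 139, 108, 112 and 143 to 772, 636 and 520.1, or 5.06-fold. HSPA1A and HSPA1B, the classic inducible pair, had at most 3 reads in every library of both groups. They are near-identical copies of each other, so a counter that drops shared reads would list them low, and no level can be given.

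The promoter of CHORDC1 is shown because it held 3 overlapping matches to a heat shock element, searched on both strands as GAA, TTC and GAA with 2 bases of any kind between the blocks. This element binds the heat shock factor HSF1. It was found in 133 of 27305 promoters (0.487%) and in 5 of the 23 heat shock genes tested that had a RefSeq promoter. The 250 bases before the gene start lie at chr11:90223050-90223299 on the minus strand (RefSeq, GRCh38.p14), and the first match, in capitals, begins 60 bases before the start. DNAJA1 also had a match, which began 3 bases after its start.
CHORDC1: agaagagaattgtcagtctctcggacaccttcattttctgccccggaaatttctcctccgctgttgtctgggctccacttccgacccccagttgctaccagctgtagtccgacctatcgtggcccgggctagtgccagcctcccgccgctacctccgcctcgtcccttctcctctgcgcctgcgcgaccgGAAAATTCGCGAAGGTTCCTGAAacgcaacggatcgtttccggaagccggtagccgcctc

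Genes of the endoplasmic reticulum moved less. Of 20 unfolded protein response genes, all passed the filter, 5 rose and none fell (5.39% and 5.12% of all genes), with a median log2 fold change of 0.58. With libraries scaled to total reads 3 were called, without DNAJB9 (log2 0.89) and EDEM1 (0.96). HERPUD1, which works in degradation of misfolded proteins, rose from 2175, 2222, 2277 and 2509 to 8751, 8098 and 7471 normalized counts, or 3.53-fold, and the transcription factor gene XBP1 from 3779, 3959, 3745 and 4606 to 10376, 10209.5 and 9224, or 2.48-fold. DNAJB9, DNAJC3 and EDEM1 rose between 2.11 and 2.29-fold. HSPA5, the main chaperone of this compartment, was 1.87-fold higher and not called.

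Of 25 ATF4 and amino acid genes, 24 passed the filter, 3 rose and none fell (5.39% and 5.12% of all genes), with a median log2 fold change of 0.26. The 3 were DDIT4, an inhibitor of mTORC1, at 11.1-fold, the stress factor DDIT3 (CHOP) at 4.33-fold, and PPP1R15A (GADD34), which ends the stress arrest of translation, at 2.90-fold. A gene on the other strand covers 41.2% of DDIT4 and 31.6% of DDIT3. ATF4 itself had a log2 fold change of 0.14 ± 0.081 (limma, adjusted p = 0.141), and ASNS, the asparagine synthetase, of 0.56, so that neither was called.

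Metallothioneins, small proteins that bind zinc and copper, went the other way. Of 12 listed genes of metallothioneins and zinc handling, 10 passed the filter, 4 fell and none rose (5.12% and 5.39% of all genes). Their median log2 fold change was -0.81. MT1E had 784, 857, 841 and 1405 normalized counts in untreated cells and 278, 279 and 233 in the Am80 combination, and it was 3.58-fold lower. MT1X (2.25-fold lower), MT1G (2.45-fold lower) and MT1M fell too, the last from 59 reads in all untreated libraries to 9 in all treated ones (ratio 4.52, interval 2.23 to 10.4). These genes are close paralogs, so their reads may be split between them. Untreated replicate 4 was the highest library for each of the 4 genes, and 4 genes of the list fell without it as well. The zinc exporter SLC30A1, by contrast, was 1.54-fold higher and not called.

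**Figure D3:**
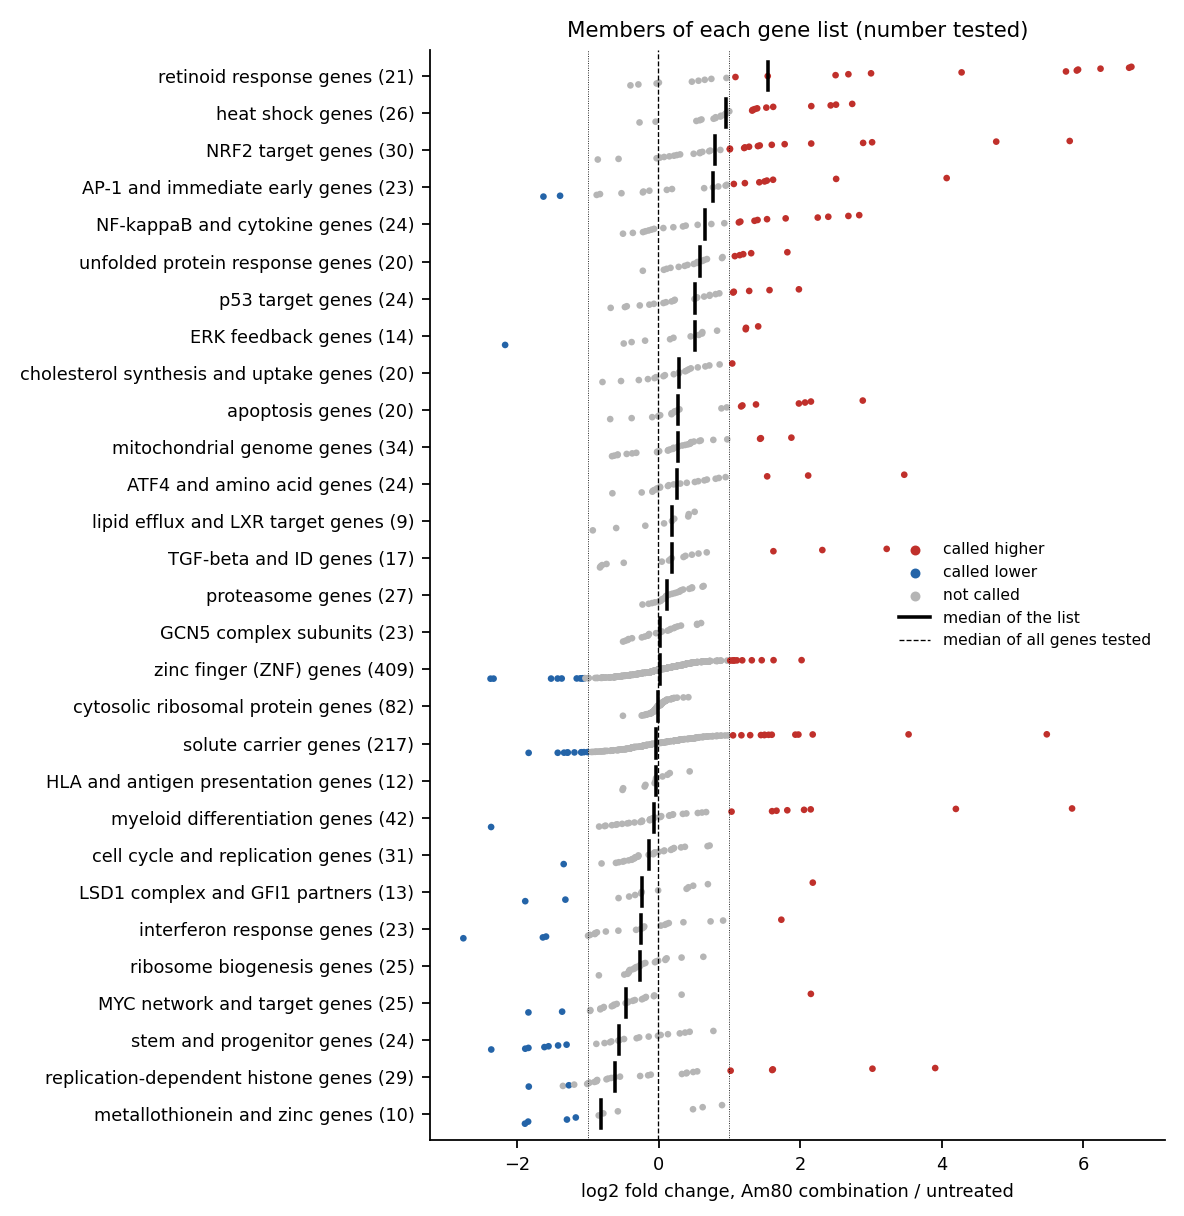
Log2 fold change of the Am80 combination against untreated cells (x axis) for each tested member of 29 gene lists and families (rows, with the number tested), ordered by their median. Red and blue points were called higher and lower, grey points were not called, black bars are list medians, the dashed line is the median of all genes and dotted lines mark 2-fold; retinoid response (1.54), heat shock (0.96) and NRF2 target genes (0.80) have the highest medians and metallothionein genes (-0.81) the lowest.

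Myeloid differentiation genes split. Of 44 listed genes, 42 passed the filter, 8 rose, 1 fell and 33 were not called, where 5.39% of all genes were higher and 5.12% lower. Scaling to total reads gave 7 rises and 2 falls. The median log2 fold change was -0.060, close to that of all genes, with a sign that changed without untreated replicate 4 (0.030). LILRA5 (ENSG00000187116.14), an activating immunoglobulin-like receptor of monocytes and neutrophils, rose from 2.79, 3.69, 2.49 and 1.11 to 174, 199 and 206 normalized counts, or 57.3-fold (log2 5.84 ± 0.20, limma, adjusted p = 1.97e-15). FGR, a Src family kinase of myeloid cells, rose from 83.7, 97.9, 72.2 and 90.8 to 1628, 1560.0 and 1584, or 18.4-fold. Both genes separated the groups completely. The inhibitory receptor LILRB2 (4.44-fold), the costimulatory CD86 (3.04-fold), the peptide receptor FPR1 (3.17-fold) and the transcription factor gene CEBPB (3.53-fold) also rose.

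ITGAM, which encodes the differentiation marker CD11b, had 51.6, 55.4, 37.4 and 54.3 normalized counts in untreated cells and 93.2, 122 and 91.4 in the Am80 combination. The treated libraries were all higher, but the change of 2.04-fold (log2 1.03 ± 0.15, limma, adjusted p = 7.21e-06) lay just past the limit, and the call was lost without Am80 combination replicate 2 (log2 0.90), without untreated replicate 3 (0.90), with libraries scaled to total reads (0.85) or with a pseudocount of 5 (0.98). NCF1 (p47phox), a subunit of the phagocyte NADPH oxidase, rose from 973, 801, 898 and 1045 to 3854, 4002 and 3686 normalized counts, with pseudogenes that could share its reads. Granule and lineage genes were mostly level: CTSG had a log2 fold change of -0.12, LYZ of 0.038 and MPO of -0.58, and the lineage factor genes CEBPA (-0.44) and SPI1 (-0.42) were lower by less than 2-fold. KIT, which encodes the progenitor marker CD117, was too low to test, with a mean of 1.13 normalized counts in untreated cells and 0.429 in the Am80 combination.

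Immediate early and inflammatory genes were raised in part. Of 25 AP-1 and immediate early genes, 23 passed the filter, 8 rose and 2 fell (5.39% and 5.12% of all genes), with a median log2 fold change of 0.77. Scaling to total reads gave 7 rises and 4 falls. KLF2, a zinc finger factor that restrains activation of myeloid cells, rose from 173, 135, 164 and 204 to 970.2, 1032 and 873 normalized counts, or 5.69-fold, and EGR1 from 296, 353, 343 and 273 to 1155, 913 and 667, or 2.83-fold. IER3 rose from a mean of 1.97 ± 2.28 to 37.4 ± 11.2 normalized counts (SD, n = 4 and 3), which is few reads. FOSL2, an AP-1 subunit, fell from 3132, 3505, 3470.1 and 2988 to 1009.6, 1059.7 and 1105, or 3.09-fold, and NR4A2 2.62-fold. FOS (-0.87) and JUN (0.77) went in opposite directions by less than 2-fold. Of 15 feedback genes of ERK signalling, 14 passed the filter, 3 rose and 1 fell (5.39% and 5.12% of all genes). The rises were those of SPRY4 (2.65-fold), DUSP5 and ETV5, and DUSP2, a nuclear phosphatase, fell 4.49-fold.

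Of 29 NF-kappaB and cytokine genes, 24 passed the filter, 10 rose (8 with libraries scaled to total reads) and none fell (5.39% and 5.12% of all genes), with a median log2 fold change of 0.65. CXCL8, the neutrophil attractant interleukin-8, rose from 3311, 3166, 3298 and 3632 to 18457, 16676 and 13070.0 normalized counts, or 4.75-fold, and IL1B from 392, 405, 459.6 and 503 to 2457, 2343 and 2139.7, or 5.27-fold. CCL2, which attracts monocytes, rose 7.13-fold and TNF 3.47-fold. All libraries of the Am80 combination were above all untreated libraries for these 4 genes. Interferon response genes gave fewer calls. Of 26 listed, 23 passed the filter, 1 rose and 3 fell (5.39% and 5.12% of all genes), with a median of -0.25. IRF1 rose from 445, 451, 494 and 484 to 1552, 1569.6 and 1558, or 3.33-fold, while IFIT1 fell from 46.0, 58.2, 56.0 and 70.9 to 8.77, 5.50 and 9.01, or 6.76-fold, and IFIT2 (3.01-fold) and USP18 (3.10-fold) fell too. With libraries scaled to total reads, 8 interferon genes were lower.

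Of 24 p53 target genes, all passed the filter, 5 rose and none fell (5.39% and 5.12% of all genes), with a median log2 fold change of 0.52, and 3 were called with libraries scaled to total reads or with quantile normalization. PMAIP1 (NOXA), which antagonizes MCL1, rose from 350.0, 324, 311 and 386 to 1472, 1381 and 1218 normalized counts, or 3.95-fold, TP53I3 rose 2.96-fold, and CDKN1A, the cell cycle inhibitor p21, was 1.65-fold higher and not called. MDM2, the ligase that degrades p53, had 3863, 3957, 4058 and 2472 normalized counts in untreated cells and 7018, 7397 and 7494 in the Am80 combination. Untreated replicate 4 was low, and the call (log2 1.05) was lost without it (0.88), with libraries scaled to total reads (0.87), with quantile normalization (0.83) and with a trend on GC content removed (0.91). A fit with the replicate number as a block, which sets untreated replicate 4 aside, gave the same 0.88. Apoptosis genes of both signs of action gave rises. Of 22 listed, 20 passed the filter, 7 rose (5 with libraries scaled to total reads) and none fell (5.39% and 5.12% of all genes), with a median of 0.28. The killers BIK (7.38-fold) and CASP9 (4.44-fold) rose beside the protectors BCL2A1 (4.20-fold) and XIAP (2.60-fold). Of 17 TGF-beta and ID genes, 3 rose and none fell (5.39% and 5.12% of all genes), but 2 fell with libraries scaled to total reads. Among the rises were ID1, an inhibitor of helix-loop-helix factors, from 522, 442, 456 and 741 to 2718, 2772 and 2414 normalized counts, and SKIL, a brake on SMAD signalling, at 3.08-fold.

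The 15 largest rises also held genes not described so far. STC1, a secreted glycoprotein, rose from 11.2, 12.9, 16.2 and 14.4 to 767, 863 and 845 normalized counts, or 56.7-fold (log2 5.83 ± 0.11, limma, adjusted p = 1.01e-19). GDF15, a stress cytokine, rose from 23.7, 16.6, 21.2 and 48.7 to 950.4, 898 and 677, or 31.7-fold. RND3, a small GTP-binding protein that opposes contraction of the cytoskeleton, rose 27.8-fold, and SLC6A12, a solute carrier that transports betaine and GABA, from 5.58, 1.85, 1.25 and 3.32 to 160.1, 154 and 176. ADGRG3, an adhesion receptor of granulocytes, rose 30.9-fold and TMEM169 27.6-fold. For all of them the treated libraries were above the untreated ones. Among abundant genes SLC2A5, the fructose transporter, rose 11.6-fold, from 1197, 1236, 1191 and 1390.4 to 14802, 14363 and 14248, MYBPH rose 2.79-fold and SRGN, the granule proteoglycan serglycin, 2.05-fold. The call of SRGN, just past the limit, was lost without Am80 combination replicate 2 (log2 0.98), with libraries scaled to total reads (0.85), with quantile normalization (0.75) and with a trend on GC content removed (0.83).

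Stem and progenitor genes gave falls and no rise. Of 30 listed, 24 passed the filter, 7 fell, none rose and 17 were not called (5.12% of all genes were lower and 5.39% higher), with a median log2 fold change of -0.56. POU2F2, RCOR2 and NGFR of this list were named by the study from these libraries. It described them as lower after both inhibitors were added to a retinoid, which is another comparison than the net change against untreated cells. MYB (ENSG00000118513.20), a transcription factor on which myeloid leukemias depend, had 7876, 8019.6, 8262 and 7311 normalized counts in untreated cells and 2450.1, 2716 and 2877 in the Am80 combination. Every treated library was below every untreated one, and the fall was 2.94-fold (log2 -1.55 ± 0.068, limma, adjusted p = 8.92e-14). MYC (ENSG00000136997.22) fell from 6563, 5825, 6667 and 6264 to 1826, 1744 and 1733, or 3.58-fold (log2 -1.84 ± 0.07, limma, adjusted p = 9.5e-15). TAL1 fell 3.06-fold and GATA2 2.46-fold, both regulators of early blood cells, and WNT10B, a secreted WNT ligand, fell 2.67-fold.

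POU2F2 (OCT2) had 127, 127, 122 and 78.7 normalized counts in untreated cells, with replicate 4 the lowest, and 23.0, 19.2 and 20.6 in the Am80 combination. All treated libraries were lower than replicate 4, and the fall was 5.14-fold (log2 -2.36 ± 0.19, limma, adjusted p = 1.62e-09). RCOR2, a CoREST family member, fell from 47.4, 29.6, 34.9 and 28.8 to 9.87, 5.50 and 11.6. HOX genes with their cofactors were lower by less than 2-fold: HOXA9 had a log2 fold change of -0.67, HOXA10 of -0.88 and MEIS1 of -0.57, and the sum of the 7 HOX-type AML markers was 4406 to 4834 normalized counts in untreated libraries and 2630 to 2934 in treated ones. HOXA5 (0.44) and the nerve growth factor receptor NGFR (0.77) were higher by less than 2-fold.

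The fall of MYC came with many small differences. Of 25 MYC network and target genes, all passed the filter, 2 fell and 1 rose (5.12% and 5.39% of all genes). At any fold change, 20 were lower and 2 higher with an adjusted p-value under 0.05 (limma), against 26.9% and 27.8% of all genes. The median log2 fold change was -0.46. With libraries scaled to total reads, and also with quantile normalization, 6 of the 25 were called lower. MXD1, which competes with MYC for its partner MAX, rose from 374, 331, 357 and 307 to 1559, 1538 and 1463 normalized counts, or 4.44-fold, and RRS1, a ribosome assembly factor, fell 2.57-fold. Of 25 ribosome biogenesis genes none was called, 16 were lower and 2 higher at any fold change, and the median was -0.26. TFAP4, a factor that MYC is known to activate, fell from 944, 875, 853 and 869 to 146, 144 and 142, or 6.11-fold. In the cell cycle list, 31 of 32 genes passed the filter and CCND1 alone was called, falling from 1920.3, 1885, 1962 and 1735 to 773, 756 and 693, or 2.53-fold.

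Most of the 15 largest falls belonged to no list. PAQR7, a membrane progestin receptor, fell from 113, 139, 146 and 155 to 14.3, 12.4 and 19.3 normalized counts, or 8.62-fold (log2 -3.11 ± 0.21, limma, adjusted p = 9.78e-11). INKA1, an inhibitor of the kinase PAK4, fell from 76.7, 51.7, 64.8 and 102 to 7.67, 9.62 and 5.15, or 8.77-fold, and the corepressor TLE1 7.92-fold. No treated library reached the lowest untreated one for these 3 genes. DLX1, a homeobox factor, fell from 474, 460.0, 456 and 485 to 64.7, 64.6 and 65.7, or 7.12-fold. The replicates of DLX1 differed little in either group, with SDs of 13.5 and 0.59 normalized counts. ADAMTS1, an extracellular protease, fell 5.72-fold, the circadian repressor NR1D1 5.50-fold, and TIFAB, B3GNT7, KLHL30, LINGO3, DDN and C3orf80 between 5.47 and 6.39-fold. Among abundant genes the lymphoid factor IKZF1 fell 2.28-fold, the cytolinker PLEC 2.24-fold and PPP1R9B 2.05-fold. The calls of PLEC (log2 -0.82) and PPP1R9B (-0.78) were lost with a trend on GC content removed from each library.

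The genes of the drug targets themselves changed little. KDM1A, which encodes LSD1, had 2587, 2737, 2543 and 2597 normalized counts in untreated cells and 1868, 2052 and 1965 in the Am80 combination, a log2 fold change of -0.42 ± 0.055 (limma, adjusted p = 1.85e-06). KAT2A was also lower by less than 2-fold (-0.47 ± 0.077), and its paralog KAT2B (-0.13 ± 0.10) was not called (limma, adjusted p = 0.268). An inhibitor of the protein need not alter the transcript, so these values check no label. Of 14 genes of the LSD1 complex and its GFI1 partners, 13 passed the filter, 1 rose and 2 fell (5.39% and 5.12% of all genes). SNAI1, a repressor that recruits LSD1, rose from 141, 172, 163 and 169.5 to 779, 775 and 648, or 4.53-fold, while RCOR2 and ZMYM3 (2.49-fold) fell. GFI1 was 1.32-fold higher and not called. All 23 GCN5 complex subunits passed the filter, none was called, and their median was 0.023 (-0.16 with libraries scaled to total reads).

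Housekeeping groups gave few calls or none, and other gene families and long noncoding RNA genes are described after them. None of 82 cytosolic ribosomal protein genes, 27 proteasome genes, 12 HLA and antigen presentation genes or 9 lipid efflux genes tested was called at 2-fold by limma. Scaling to total reads gave 1 fall among the lipid efflux genes. At any fold change, 10 proteasome genes and 3 ribosomal protein genes were higher with an adjusted p-value under 0.05 (limma), against 27.8% of all genes. The median of the proteasome genes, 0.12, turned to -0.06 with libraries scaled to total reads. Of 20 cholesterol genes, INSIG1 alone rose, 2.06-fold, and this call was lost without Am80 combination replicate 1 (log2 0.98), with libraries scaled to total reads (0.86), with quantile normalization (0.86) and with a trend on GC content removed (0.99). Of 34 genes of the mitochondrial genome 3 rose, all tRNA genes with few reads. Zinc finger (ZNF) genes gave 10 rises and 11 falls among 409 tested and solute carriers 13 and 10 among 217, where 5.39% of all genes were higher and 5.12% lower. With libraries scaled to total reads these counts were 4 and 19 for zinc finger genes and 11 and 16 for solute carriers, and quantile normalization gave 9 and 7 for zinc finger genes. Of 29 replication-dependent histone genes 5 rose, led by H2BC26 and H2AC25 (8.11-fold), and 2 fell (4 with libraries scaled to total reads). The fall of H4C5 rested on untreated replicate 1, since the untreated libraries had 87.9, 5.54, 9.96 and 9.97 and the treated libraries 4.38, 1.37 and 6.44 normalized counts, and the call was lost without it (log2 -1.02) and without Am80 combination replicate 2 (-1.36). Long noncoding RNA genes gave 79 rises and 181 falls among 1523 tested, against 5.39% higher and 5.12% lower among all genes, with a median log2 fold change of -0.19. With libraries scaled to total reads the counts were 57 and 263.

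Genes called lower differed from the other genes in their makeup. The median length of the gene from start to end was 11.6 kb for the called lower genes, 27.5 kb for the called higher genes and 26.7 kb for all genes tested (GENCODE 29). The lower genes more often had 1 or 2 exons (37.2%, against 23.4% of the higher and 19.4% of all genes), their transcripts had a median GC content of 54.6% (47.9% and 48.2%), and their median level was 56.3 normalized counts (227 and 373). Among protein-coding genes under 5 kb long 10.2% were called lower and 5.66% higher, whereas among those over 100 kb 2.83% were lower and 6.07% higher. With a trend on GC content removed from each library, a step chosen after the data were seen, 720 genes were called higher and 662 lower, of which 671 and 589 were also called without this step. These are descriptions of the genes called, and why they differ was not tested.

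Am80 alone, at the same dose and time, gives the closest view of what the retinoid did without the inhibitors. Against untreated cells, 619 of the same 14602 genes were called with Am80 alone (4.24%), 466 higher (3.19%) and 153 lower (1.05%), and adding the inhibitors to Am80 moved 766 genes (5.25%), 353 higher (2.42%) and 413 lower (2.83%). These comparisons share the untreated libraries or the Am80 combination libraries with the net change, and the net log2 fold change is the sum of both steps by construction, so the values are set side by side as a description. In the retinoid list the median log2 fold change was 2.05 with Am80 alone and 1.54 with the combination. The NRF2 targets had -0.0083 and 0.80, the heat shock genes -0.042 and 0.96, the stem and progenitor genes 0.13 and -0.56, and the MYC network -0.32 and -0.46.

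For single genes, the step from Am80 to the Am80 combination took several forms. CYP26B1 was at 404, 326 and 436 normalized counts with Am80 alone, above all 3 Am80 combination libraries, and the step was a fall by 1.68 on the log2 scale that was called. HIC1 also fell in this step (-1.13), and TGM2 (-0.60), DHRS3 (-0.53) and FGR (-0.80) were lower without a call. RARG was called higher with Am80 alone (239.5, 235 and 263 normalized counts, log2 1.08) and lower in the step (-1.10), which left the net value of -0.027. HMOX1 had 209.8, 142 and 179 normalized counts with Am80 alone, within the range of the untreated libraries except for 1 library above it, so its net rise came with the inhibitors present (step 5.64). The same holds for OSGIN1 (Am80 alone -0.26, step 5.03), HSPH1 (-0.024 and 2.18) and CXCL8 (-0.25 and 2.50).

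LILRA5 and STC1 were called in both steps, LILRA5 with 4.43 and 1.41 and STC1 with 4.05 and 1.77 on the log2 scale. RARA had a log2 fold change of 0.38 with Am80 alone, which was not called, and of 1.16 in the step, which was. Among the falls, ADAMTS1 had 166, 189.5 and 186 normalized counts with Am80 alone and 159, 192 and 138 with the combination, and its step was not called, while PAQR7 (-0.68 and -2.42) was called in the step alone. POU2F2 and WNT10B were at 0.92 and 0.81 with Am80 alone, without a call, and fell in the step (-3.28 and -2.23). MYC (-0.90 and -0.94) and MYB (-0.60 and -0.95) passed the 2-fold limit in neither step and did so in the net change.

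**Figure D4:**
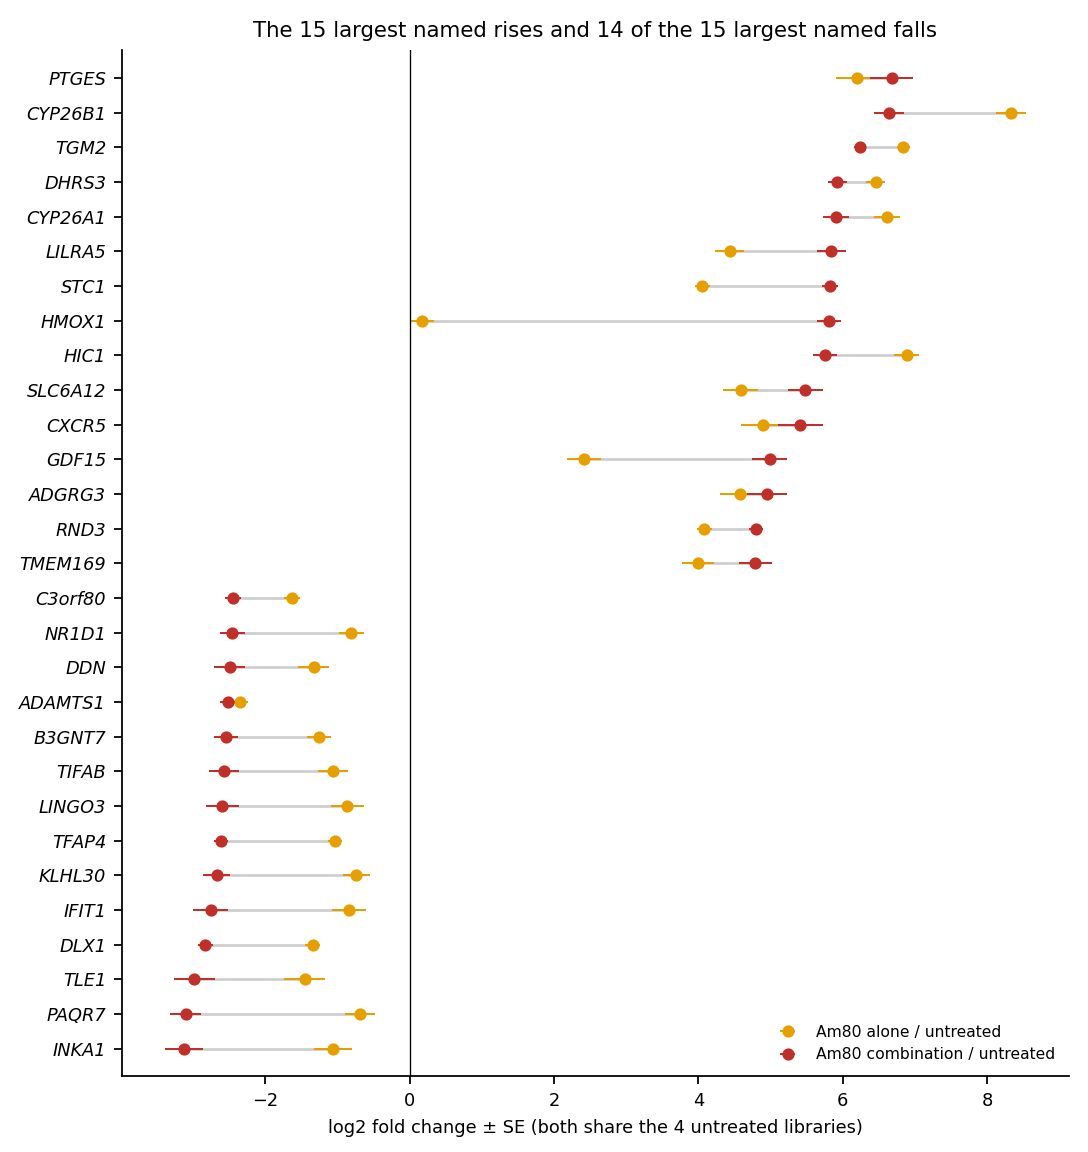
Log2 fold change against untreated cells (x axis, ± SE) of the 15 largest named rises and 14 of the 15 largest named falls of the Am80 combination (rows), with Am80 alone in orange (n = 3) and the Am80 combination in red (n = 3), both against the same 4 untreated libraries. HMOX1 is at 0.17 with Am80 alone and 5.81 with the combination, CYP26B1 at 8.33 and 6.65, and PAQR7 at -0.68 and -3.11.

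Against the same inhibitors with ATRA, the Am80 combination gave no call among 14602 genes (0.0%, limma), with 2650 genes at an unadjusted p under 0.05 and a smallest adjusted p of 0.115. EdgeR also called 0 genes (2462 at an unadjusted p under 0.05), and DESeq2 called 1 (2217). A limma fit on these groups only called 17. The 95% confidence interval of the difference lay within 2-fold for 13356 genes (91.5%), and for 1229 of the 1534 genes called against untreated cells (80.1%). For the other genes a 2-fold difference lay within the interval, so they cannot be said to be alike. The retinoids differ in structure, ATRA being a polyene of vitamin A and Am80 an aromatic amide, and the methods give 0.1 µM for each.

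The 5 genes with the smallest p-values in this comparison included stress genes. HSPA6 had 772, 636 and 520.1 normalized counts with Am80 and 273, 448 and 278 with ATRA, a log2 difference of 0.97 with an interval of 0.59 to 1.35 (limma, adjusted p = 0.115). PPP1R15A (0.71) and DDIT4 (0.74) were also higher with Am80, DHRS4L2 (0.59) too, and RAB4A-AS1 (-0.56) was lower, none of them called. HMOX1 had 9662, 8919 and 7763 with Am80 and 4011, 7287 and 5284 with ATRA (interval of the log2 difference 0.34 to 1.07), and TGM2 had 6489.7, 6417 and 6335 and 6837, 5474 and 6761 (-0.17 to 0.21). ITGAM differed by 0.0027 (-0.33 to 0.34) and MYC by -0.26 (-0.41 to -0.10).

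**Figure D5:**
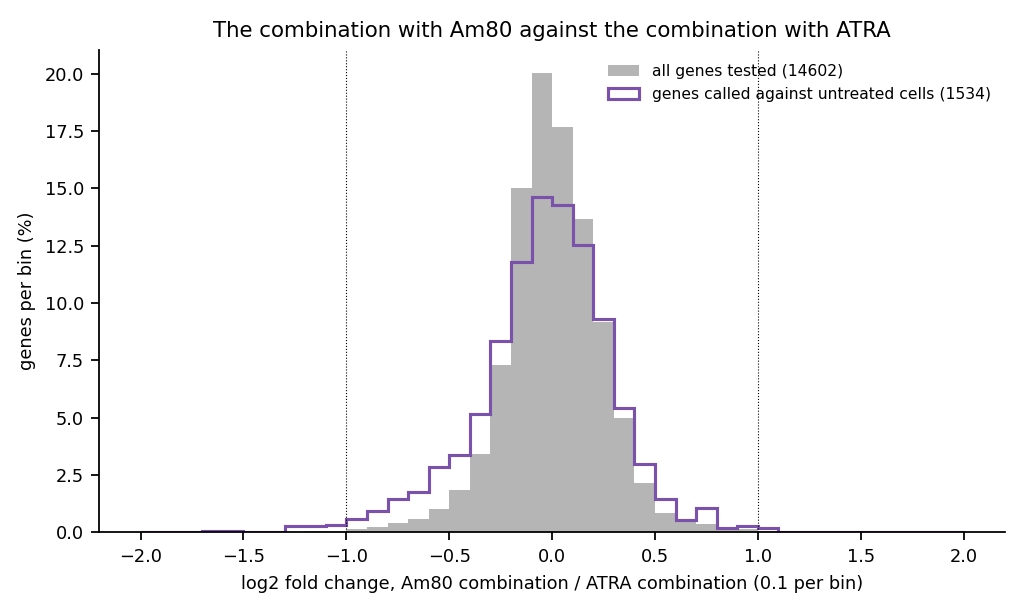
Distribution of the log2 fold change of the Am80 combination against the ATRA combination (x axis, bins of 0.1), as a percentage of genes per bin (y axis), for all 14602 genes tested (grey) and for the 1534 genes called between the Am80 combination and untreated cells (purple line). Dotted lines mark 2-fold, most genes lie between them, and limma called no gene.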

How the data were processed

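RNA-seq of OCI-AML3 cells was analysed from the 1 deposited table of gene values, with 3 Am80 combination, 4 untreated, 3 Am80, 3 ATRA and 3 ATRA combination libraries grouped by their labels. Per the submitters' processing notes, reads passed FastQC, cutadapt, STAR and featureCounts, and the deposited signal values are counts that the authors divided by DESeq2 size factors. Tool versions, genome build, annotation and strand setting are not given in the sources used here. All values were whole reads within 0.001 when multiplied by the size factors that their steps gave (100.0% in every library), so total reads per library could be recovered (11963898 to 33789718 over all 16 libraries).

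The main test was limma 3.58.1 (R 4.3.3, trend, not robust) on log2(normalized count + 1), with 1 coefficient per group over all 16 libraries, for genes averaging 10 or more over the 7 libraries, and Benjamini-Hochberg adjustment over 14602 genes. A gene was called at an adjusted p under 0.05 with a fold change above 2. A fold change on this scale understates the change of low genes. EdgeR 4.0.16 (quasi-likelihood) and DESeq2 1.42.0 on the recovered reads were alternatives, and called 1555 and 1538 genes in the Am80 combination against untreated cells. Tested on simulated counts (14602 genes, 200 changed), limma called 99% of 4-fold and 100% of 8-fold changes and 4 other genes. No smaller change was simulated and all other genes were left unchanged. The simulation therefore says nothing of changes near the 2-fold limit. Other alternatives were pseudocounts of 0.5 and 5, other filters and limits, scaling to total reads, quantile normalization, fits restricted to the groups compared, a replicate block, leaving out each library and, added after seeing the data, removal of a trend on transcript GC content.

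Named genes were the 15 largest rises and falls with a symbol, no overlap and a mean of at least 50 in the higher group, up to 2 called members per list and direction, the drug targets, receptors, ITGAM and KIT, the 5 smallest p-values against the ATRA combination, and the 5 most abundant called genes per direction. Other list members are named as examples chosen after their values were seen. Some genes are not reported here. The members and lists were chosen with earlier results of these data known. Gene symbols were matched for 62700 of 62700 identifiers, and gene length, exons, GC content and overlap on the other strand came from GENCODE 29 (58207 identifiers matched). RefSeq promoters (GRCh38.p14) were found for 10487 of 14602 genes tested, and motifs were searched from 250 bases before to 50 bases after the gene start. Ratio intervals are exact 95% intervals of read counts, and the floor was 3 reads. Python 3.11.15 with scipy 1.17.1, pandas 2.3.3 and matplotlib 3.10.9 was used for the rest.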

Additional observations from a re-analysis of the deposited data

Results flagged for a closer look

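For 103 genes, the highest and the lowest of the 4 untreated libraries were compared with the rest by Dixon's criterion at the 95% level, which compares the gap with the whole range. Chance flags about 1 in 20 such groups, and 7 were found, 6 of them in untreated replicate 4. In that library SRGN had 46955 normalized counts against 37217 to 37750 in the other untreated libraries, FTL had 32572 against 23457 to 24041, C3orf80 had 1250.8 against 945 to 994, and MT1E had 1405 against 784 to 857. It was low for POU2F2, with 78.7 against 122 to 127. CYP26B1 was at 1.11 there and at 0 in the others, which is a single read. The remaining gene was H4C5, with 87.9 normalized counts in untreated replicate 1 and 5.54 to 9.97 in the other untreated libraries. No cause was tested.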

How the results depend on the processing

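The counts of genes called moved most with the limits. At any fold change, 4053 genes were higher and 3927 lower in the Am80 combination than in untreated cells, 4153 were called with Am80 alone and 5752 between the Am80 combination and Am80 alone. With a limit of 1.5-fold these counts were 1845, 1944, 1440 and 2276. Without a filter on low values, 1217 genes were higher and 1211 lower, and with a mean of at least 50, 398 genes were lower, 363 were called with Am80 alone and 414 in the step from Am80 to the combination, since fewer genes were tested. Scaling to total reads gave 1176 lower genes. Between the Am80 and the ATRA combination, where limma called no gene, DESeq2 gave 1 (88 at any fold change) and a limma fit of only these groups 17. The cause of the moves with scaling and between fits was not tested. Leaving out 1 library at a time gave 738 to 825 higher and 744 to 776 lower genes, 612 to 670 with Am80 alone, 709 to 855 in the step, and 0 to 3 between the combinations.

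The replicate numbers showed no pairing of Am80 combination with untreated libraries (correlations of the deviations of same-numbered libraries -0.010, -0.043 and 0.137). Pairing of the Am80 with the ATRA combination was not examined. A fit with the replicate number as a block called 739 genes higher, 762 lower and 13 between the combinations. Only untreated cells had a replicate 4, so the block sets that library aside. Against untreated cells it is thus no separate check from leaving it out.

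Of 1880 values of 100 named genes under alternatives, 1857 kept direction and call. Most of these genes were named for large or abundant changes, so this share does not stand for all called genes. Of all genes called higher and lower, 73.3% and 100% were also called with scaling to total reads. These shares were 89.1% and 74.4% with a pseudocount of 5, and 85.3% and 78.8% without the GC trend. The fold change of RARG, not called, turned from -0.027 to 0.078 with quantile normalization, 0.129 without the GC trend and 0.026 with the replicate block. Without single libraries it lay between -0.083 and 0.026. The calls of INSIG1, ITGAM, SRGN, H4C5, H1-10-AS1, PLEC and PPP1R9B were each lost under at least 1 alternative.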
